A study of Mus musculus with 9 samples.

Results

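S100 proteins are small calcium sensors, and their transcripts were followed across 9 mouse hearts as 9 genes: S100a1, S100a4, S100a6, S100a8, S100a9, S100a10, S100a11, S100a13 and S100a16. The genes were taken by exact symbol from the expression table of each heart. They are 9 of the 43154 genes listed, and all 9 are among the 13487 genes that reached at least 1 FPKM (mapped fragments scaled by transcript length and library size) in at least 2 hearts. The study asked how hearts enlarged by calcineurin respond to JIB-04, an inhibitor of Jumonji histone demethylases. The groups, all of the C57BL/6 strain, were calcineurin transgenic mice given JIB-04 (2 hearts, 1 at day 158 and 1 at day 125), calcineurin transgenic mice given vehicle (3 hearts, 2 at day 158 and 1 at day 125) and wild type mice given vehicle (4 hearts, 2 at each day). Days are days after birth. Dosing began at 4 weeks of age, 3 times a week, with 50 mg/kg in the JIB-04 group. The transgenic line that the labels cite carries activated calcineurin A behind the alpha-myosin heavy chain promoter, which is active in heart muscle cells. Each heart came from its own numbered mouse, and JIB-04 was not given to wild type mice in the samples used here.

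Each S100 protein folds around a pair of EF-hand loops and usually works as a dimer; calcium binding opens a surface that grips a target protein. S100A1 is the main S100 protein of heart muscle, where it binds the ryanodine receptor and the calcium pump of the sarcoplasmic reticulum. S100A4, S100A6, S100A10 and S100A11 are abundant in fibroblasts and other stromal cells, and several of them bind annexins, while S100A8 and S100A9 pair as calprotectin, a product of neutrophils and monocytes that signals outside the cell.

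All 9 genes lie on mouse chromosome 3 (GRCm38). S100a1, S100a13, S100a16, S100a4, S100a6, S100a8 and S100a9 occupy a stretch of 184.7 kb at chr3:90511034-90695721. S100a11 and S100a10 occupy a second stretch of 44.2 kb, 2824.8 kb further along. S100a1, on the minus strand, and S100a13, on the plus strand, stand head to head with 42 bases between their annotated ends. Windows from 250 bases before to 50 bases after the RefSeq start (GRCm38.p6) were found for 8 of the 9 genes, all but S100a10. Those of the 4 genes that passed the test in either transgenic group are printed 5′ to 3′, because the results turn on these genes. Capitals mark GGAAA (the core of sites bound by NFAT, the factors that calcineurin activates), TATAAA (the core promoter element known as the TATA box), TGANTCA (an AP-1 site), CATTCC (a TEAD site) and GGGCGG (a GC box), each searched on both strands, and no marked match shares a base with another.
S100a1 at chr3:90514281-90514580, minus strand: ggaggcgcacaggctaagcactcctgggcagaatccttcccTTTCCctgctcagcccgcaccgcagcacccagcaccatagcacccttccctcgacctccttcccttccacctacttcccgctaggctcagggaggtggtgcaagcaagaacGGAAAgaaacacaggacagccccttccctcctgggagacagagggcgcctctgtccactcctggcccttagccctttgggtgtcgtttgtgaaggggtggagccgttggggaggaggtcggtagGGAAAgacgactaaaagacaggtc
S100a4 at chr3:90603520-90603819, plus strand: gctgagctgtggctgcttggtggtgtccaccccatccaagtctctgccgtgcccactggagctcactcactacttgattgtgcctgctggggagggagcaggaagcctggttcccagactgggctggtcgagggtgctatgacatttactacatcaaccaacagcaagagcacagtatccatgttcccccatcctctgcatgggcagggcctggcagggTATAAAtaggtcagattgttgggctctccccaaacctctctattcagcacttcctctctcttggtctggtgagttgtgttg
S100a6 at chr3:90612644-90612943, plus strand: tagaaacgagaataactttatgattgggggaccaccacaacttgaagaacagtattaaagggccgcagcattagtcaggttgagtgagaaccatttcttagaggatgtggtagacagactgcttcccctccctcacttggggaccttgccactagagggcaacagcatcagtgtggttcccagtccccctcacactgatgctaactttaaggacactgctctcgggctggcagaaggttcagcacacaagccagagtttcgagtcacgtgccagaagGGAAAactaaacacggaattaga
S100a11 at chr3:93520246-93520545, plus strand: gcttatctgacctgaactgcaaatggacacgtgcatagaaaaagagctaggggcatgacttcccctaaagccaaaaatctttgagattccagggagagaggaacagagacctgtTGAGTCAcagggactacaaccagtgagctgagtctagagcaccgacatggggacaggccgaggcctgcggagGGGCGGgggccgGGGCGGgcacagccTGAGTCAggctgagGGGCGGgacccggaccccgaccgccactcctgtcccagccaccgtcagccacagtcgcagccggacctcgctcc

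The 4 windows differed in what they hold. The S100a1 window has 3 matches to the NFAT core and, since the RefSeq starts of S100a1 and S100a13 lie 105 bases apart, it also covers the start of S100a13, at base 146. The S100a4 window has a TATA box whose first base lies 31 bases before the start and no NFAT core. The S100a6 window has 1 NFAT core, 27 bases after the start, and the S100a11 window has 2 AP-1 sites, 3 GC boxes and neither an NFAT core nor a TATA box. Counting the first window of each gene, the NFAT core was present in 6 of 8 windows, against 61.3% of 32851 promoter windows of the same length genome-wide. The letters TATAAA were present in 3 of 8 (S100a4, S100a8 and S100a9), against 13.6% of all windows. The S100a8 match begins 30 bases before the start, near the place of that in S100a4, but the S100a9 match begins at the start itself. The AP-1 site was present in 1 of 8 (7.81% of all windows), the GC box in 2 of 8 (35.7%) and the TEAD site in none of the 8 (14.7%). These matches are descriptions of letters and were not tested as binding sites.

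The transgene was visible in every transgenic heart, but less in one of them. Ppp3ca, the gene of calcineurin A alpha, stood at 1536 and 1434 FPKM in JIB-04 hearts and 1762, 1706 and 199 FPKM in the transgenic vehicle hearts, against 22.9 to 24.8 FPKM in the wild type hearts. Rcan1, which calcineurin induces, stood at 139.6 and 169 FPKM in JIB-04 hearts and 97.7, 140.04 and 72.8 FPKM in the transgenic vehicle hearts, against 25.6 to 29.4 FPKM in the wild type hearts. The third transgenic vehicle heart (day 158) was thus lowest of the 5 for both, and its Col1a1 level was 9.67 FPKM, against 38.04 to 48.4 FPKM in the other transgenic hearts. Mitochondrial transcripts took 10.004 to 30.9% of the summed FPKM of a heart, and the relative depth estimated from low values spanned 1.14 to 1.51 times that of the first wild type heart; read totals were not used here. Cardiomyocyte markers summed to 14194 and 15937 FPKM in JIB-04 hearts and 15056 to 16552 FPKM in the transgenic vehicle hearts, against 18863 to 22083 FPKM in the wild type hearts. Fibroblast markers summed to 755 and 794 FPKM in JIB-04 hearts and 731 to 741 FPKM in the transgenic vehicle hearts, against 338 to 431 FPKM in the wild type hearts. Endothelial markers summed to 180.1 and 202 FPKM in JIB-04 hearts and 201 to 276 FPKM in the transgenic vehicle hearts, against 326 to 347 FPKM in the wild type hearts. Smooth muscle and pericyte markers summed to 867 and 906 FPKM in JIB-04 hearts and 856 to 1083 FPKM in the transgenic vehicle hearts, against 695 to 713 FPKM in the wild type hearts. Des made up most of this sum, at 736 to 925 FPKM in the transgenic vehicle hearts, against 492 to 522 FPKM in the wild type hearts. Of the 8 markers, 3 were called higher between these groups (Des, Cspg4 and Cnn1; 20.3% of all genes were). Cnn1 reached 1 FPKM only in transgenic hearts. Another 3 were called lower (Kcnj8, Rgs5 and Pdgfrb, beside 15.7% of all genes). The part of these cell types in the S100 differences was not tested. The labelled tissue is heart, and the cardiomyocyte markers were the highest of the marker lists in every heart.

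Taken as a family, S100 transcripts in transgenic vehicle hearts held less S100a1 and more S100a6 and S100a11 than in wild type hearts. Of the 9 genes, 3 passed the test, which is 33.3% of them beside 36.0% of all genes tested in this comparison. S100a6 and S100a11 were higher (20.3% of all genes were) and S100a1 lower (15.7% of all genes were). The test was limma on log2(FPKM + 1) with a term for day, two-sided, with Benjamini-Hochberg adjustment over all 13487 genes and a threshold of 0.05. The median log2 difference of the 9 genes was 0.28, beside 0.05 over all genes tested. The hearts of the groups did not overlap for 6 of the 9 genes, beside 41.2% of all genes tested. S100a4, S100a6, S100a9 and S100a11 were higher without overlap (23.4% of all genes) and S100a1 and S100a16 lower (17.7%). The same 6 genes did not overlap when all 5 transgenic hearts were set against the 4 wild type hearts, beside 35.6% of all genes, 20.4% higher and 15.3% lower. In a fit of the 5 day 158 hearts alone none of the 3 genes passed in limma, S100a6 at 0.74 (adjusted p = 0.057), S100a11 at 0.61 (adjusted p = 0.11) and S100a1 at -0.38 (adjusted p = 0.20) on the log2 scale. The fit of 6 group and day means gave the same day 158 differences. It takes its spread only from the combinations of group and day that hold 2 hearts, day 125 wild type hearts among them. That fit called S100a6 (limma adjusted p = 0.018) and S100a11 (adjusted p = 0.046).

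**Figure D1:**
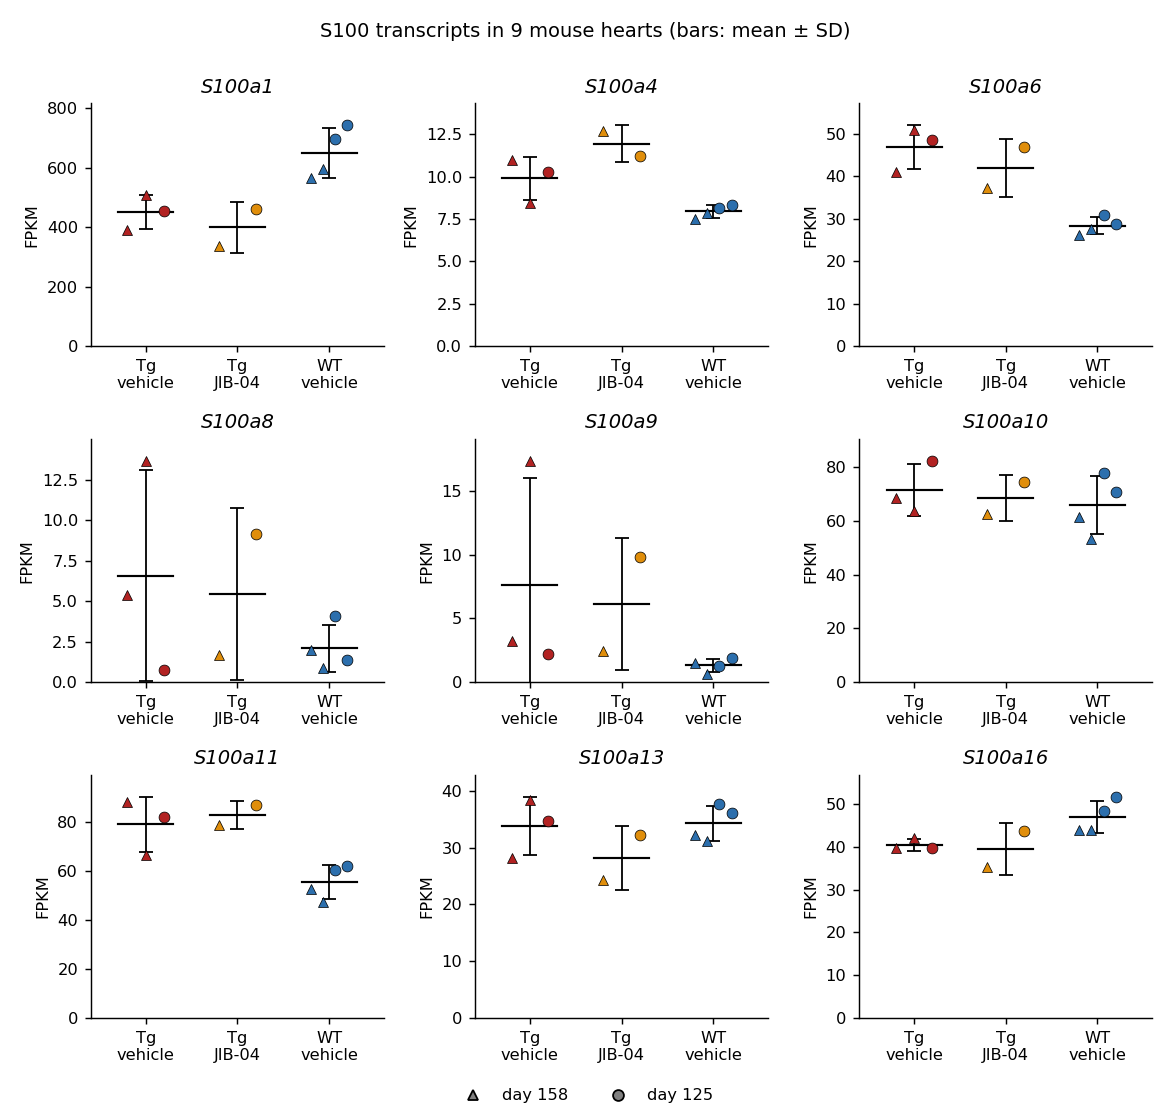
FPKM (linear axis from 0) of each of the 9 S100 genes in each heart, with transgenic vehicle (Tg vehicle), transgenic JIB-04 (Tg JIB-04) and wild type vehicle (WT vehicle) hearts from left to right; triangles are day 158, circles day 125, and bars give mean ± SD (a bar that would run below 0 is clipped there). The 5 transgenic hearts lie below all 4 wild type hearts for S100a1 and S100a16 and above them for S100a4, S100a6, S100a9 and S100a11.

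S100a1 was by far the most abundant member, placed 117th of the 13487 tested genes by mean FPKM. It stood at 453, 392 and 508 FPKM in the transgenic vehicle hearts, against 697, 741, 566 and 594 FPKM in the wild type hearts. Every transgenic vehicle heart was below every wild type heart. S100a1 fell, with a log2 fold change of -0.48 ± 0.11 (SE, 3 against 4 hearts; limma adjusted p = 0.012), a fitted ratio of 0.716 on the log2(FPKM + 1) scale. The call rests on the first transgenic vehicle heart (day 125), without which the log2 fold change was -0.35 and the adjusted p 0.081. In the JIB-04 hearts S100a1 stood at 460.4 and 337 FPKM, also below every wild type heart, with a log2 fold change against wild type of -0.71 ± 0.13 (SE; limma adjusted p = 0.0043).

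Transcripts on a list of S100A1 partners and calcium-handling genes of heart muscle did not share one direction. Of the 11 listed genes, all tested, 2 rose and 4 fell in transgenic vehicle against wild type hearts, beside 20.3% of all genes higher and 15.7% lower. Their median log2 difference was -0.20, beside 0.05 over all genes. Pln, which encodes phospholamban, the brake on the calcium pump, stood at 1263, 1269 and 1343 FPKM in the transgenic vehicle hearts, against 1710.5 to 1803 FPKM in the wild type hearts, with a log2 fold change of -0.43 ± 0.06 (SE; limma adjusted p = 0.0014). Pygm, muscle glycogen phosphorylase, fell by 0.54 on the log2 scale (limma adjusted p = 0.0028). Atp2a2, the calcium pump itself, and Atp5a1, an ATP synthase subunit, also fell, by 0.31 and 0.35 on the log2 scale (limma adjusted p = 0.0052 and 0.0035). Casq2, calsequestrin of the sarcoplasmic reticulum, rose to 440.4 to 535 FPKM in the transgenic vehicle hearts, against 302 to 377 FPKM in the wild type hearts, a log2 fold change of 0.50 ± 0.09 (SE; limma adjusted p = 0.0048). Capzb, an actin capping subunit, rose by 0.48 on the log2 scale (limma adjusted p = 0.00099). Ryr2, the ryanodine receptor, did not pass the test (log2 fold change -0.20 ± 0.12, SE; limma adjusted p = 0.23). S100a1 and the cardiomyocyte marker sums given above were both lower in transgenic vehicle than in wild type hearts. Within the transgenic vehicle group the third heart had the highest S100a1 (508 FPKM) but the lowest marker sum (15056 FPKM). Of the 9 cardiomyocyte markers 5 fell and 1 rose, beside 15.7% of all genes lower and 20.3% higher. Their part in the change of S100a1 was not tested.

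S100a13, the head-to-head neighbour of S100a1, encodes a protein that takes part in the release of fibroblast growth factor 1 from cells. It stood at 34.7, 28.3 and 38.4 FPKM in the transgenic vehicle hearts, against 37.7, 36.1, 32.2 and 31.2 FPKM in the wild type hearts. The groups overlapped throughout, and the log2 fold change was 0.01 with a 95% interval of -0.25 to 0.26 (limma adjusted p = 0.97). Without the third transgenic vehicle heart it was -0.12 (limma adjusted p = 0.20). The ratio of S100a1 to S100a13 FPKM was 13.1, 13.9 and 13.2 in the transgenic vehicle hearts and 14.3 and 13.9 in the JIB-04 hearts, against 18.5, 20.5, 17.5 and 19.01 in the wild type hearts. The ratio, given as a description, lay lower in all 5 transgenic hearts than in any wild type heart. On the other side of S100a1, Chtop, an mRNA export factor gene, stood at 45.01 to 50.5 FPKM in the transgenic vehicle hearts, against 45.6 to 49.1 FPKM in the wild type hearts.

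S100a16, a broadly expressed member, stood at 39.8, 39.7 and 42.2 FPKM in the transgenic vehicle hearts, against 48.4, 51.6, 43.9 and 43.9 FPKM in the wild type hearts. All transgenic vehicle hearts were lower, by a narrow gap. The log2 fold change was -0.18 ± 0.08 (SE) and did not pass the test (limma adjusted p = 0.12). With median of ratios scaling it was -0.23 and passed (limma adjusted p = 0.033), as it did with quantile normalization (-0.23, adjusted p = 0.026).

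S100a6 encodes calcyclin, which binds the calcyclin-binding protein of ubiquitin ligase complexes and several annexins. It stood at 48.6, 41.1 and 50.9 FPKM in the transgenic vehicle hearts, against 30.98, 28.7, 26.3 and 27.7 FPKM in the wild type hearts. The groups were well apart, with the lowest transgenic vehicle heart about 10 FPKM above the highest wild type heart. S100a6 rose, with a log2 fold change of 0.73 ± 0.09 (SE; limma adjusted p = 0.00073), a fitted ratio of 1.66.

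S100a11, a partner of annexin A1 in membrane repair and endosome traffic, stood at 82.3, 88.3 and 66.7 FPKM in the transgenic vehicle hearts, against 60.6, 61.9, 52.7 and 47.4 FPKM in the wild type hearts. Every transgenic vehicle heart was higher, although the third was close to the highest wild type heart. S100a11 rose, with a log2 fold change of 0.53 ± 0.11 (SE; limma adjusted p = 0.0060). Its value is uncertain: 297 bases of its 511-base transcript are 98.99% identical to the pseudogene Gm12854, with which reads could be split. Gm12854 was listed at 14.6, 9.06 and 9.76 FPKM in the transgenic vehicle hearts, against 8.54, 13.6, 6.26 and 0.015 FPKM in the wild type hearts. The sum of S100a11 and Gm12854 was 96.9, 97.4 and 76.5 FPKM in the transgenic vehicle hearts, against 69.2, 75.5, 58.998 and 47.4 FPKM in the wild type hearts. The sums did not overlap either, by a narrow gap. A second copy, Gm7665, is 98.65% identical over 297 bases and was listed at up to 3.11 FPKM. With it added, the sum was 96.9, 98.4 and 77.7 FPKM in the transgenic vehicle hearts, against 69.2, 75.5, 62.1 and 49.9 FPKM in the wild type hearts. FPKM is scaled by transcript length, and both copies are shorter than the S100a11 transcript. The sums therefore do not restore split reads on the scale of S100a11.

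S100a4 encodes the protein also known as fibroblast-specific protein, which binds nonmuscle myosin and is made by fibroblasts and leukocytes. It stood at 10.3, 10.95 and 8.45 FPKM in the transgenic vehicle hearts, against 8.16, 8.35, 7.47 and 7.88 FPKM in the wild type hearts. The third transgenic vehicle heart lay just above the highest wild type heart and the other two lay clear of it. The log2 fold change of 0.28 ± 0.10 (SE) did not pass the test (limma adjusted p = 0.062), and without that heart it was 0.37 and passed (adjusted p = 0.012). The S100a4 transcript shares exon positions with the annotated gene Gm42674 on the same strand, which is not listed in the tables. S100a6, S100a11 and, without passing, S100a4 were higher in transgenic vehicle than in wild type hearts, as were the fibroblast marker sums given above. The third transgenic vehicle heart had the highest marker sum and S100a6 of its group, but the lowest S100a4 and S100a11. Of the 10 markers 4 rose (Pdgfra, Dcn, Tcf21 and Mfap5, beside 20.3% of all genes higher) and none fell. Dcn, the proteoglycan decorin, stood at 319, 319 and 567 FPKM in the transgenic vehicle hearts, against 173 to 224 FPKM in the wild type hearts. In the third transgenic vehicle heart Dcn made up most of the sum, and other markers lay below the wild type range, Col3a1 at 14.1 FPKM against 32.97 to 45.7 FPKM and Lum at 21.1 FPKM against 35.5 to 39.9 FPKM. The part of fibroblasts in these changes was not tested.

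S100a10 encodes the partner with which annexin A2 forms a stable tetramer at the plasma membrane. It stood at 82.1, 68.4 and 63.8 FPKM in the transgenic vehicle hearts, against 77.8, 70.8, 61.3 and 53.2 FPKM in the wild type hearts. The groups overlapped, and the log2 fold change of 0.18 ± 0.08 (SE) did not pass the test (limma adjusted p = 0.11). Anxa2, by contrast, stood at 49.9, 60.6 and 56.2 FPKM in the transgenic vehicle hearts, against 42.02, 41.1, 42.8 and 34.5 FPKM in the wild type hearts, without overlap, and rose by a log2 fold change of 0.46 ± 0.10 (SE; limma adjusted p = 0.0095). The ratio of S100a10 to Anxa2 FPKM was 1.64, 1.13 and 1.13 in the transgenic vehicle hearts and 1.31 and 1.09 in the JIB-04 hearts, against 1.85, 1.72, 1.43 and 1.54 in the wild type hearts.

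Most of the tested annexin genes were called between transgenic vehicle and wild type hearts. Of 12 listed annexin genes 9 were tested, and 6 rose and 1 fell, beside 20.3% of all genes higher and 15.7% lower, with a median log2 difference of 0.51 beside 0.05 over all genes. Anxa1, the partner of S100A11, stood at 25.2, 24.7 and 32.9 FPKM in the transgenic vehicle hearts, against 12.2, 9.32, 12.3 and 11.02 FPKM in the wild type hearts. The groups were far apart, and the log2 fold change was 1.21 ± 0.12 (SE; limma adjusted p = 0.00026). Anxa4 rose by 1.03, Anxa5 by 0.81 and Anxa8 by 0.81 on the log2 scale (limma adjusted p = 0.00045, 0.00031 and 0.017). Anxa8 stood at 0.90, 0.55 and 1.85 FPKM in the transgenic vehicle hearts and 0.96 and 1.25 FPKM in JIB-04 hearts, against 0.10 to 0.23 FPKM in the wild type hearts. It thus entered the test only through transgenic hearts, where it was high, and its place among the 6 rises depends on that filter. Anxa7 rose by 0.51 (adjusted p = 0.00091) and Anxa11 fell by 0.29 (adjusted p = 0.027) on the log2 scale. Anxa3 (0.02 ± 0.14, SE; limma adjusted p = 0.92) and Anxa6 (-0.11 ± 0.07, SE; limma adjusted p = 0.28) did not pass.

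S100a8 and S100a9, the calprotectin subunits, differed more between hearts of a group than between groups. S100a8 stood at 0.75, 5.35 and 13.6 FPKM in the transgenic vehicle hearts, against 4.11, 1.36, 1.97 and 0.86 FPKM in the wild type hearts. The lowest and the highest of all 9 hearts were both transgenic vehicle hearts. The log2 fold change was 0.93 ± 0.76 (SE; limma adjusted p = 0.38). S100a9 stood at 2.22, 3.26 and 17.3 FPKM in the transgenic vehicle hearts and 9.77 and 2.47 FPKM in JIB-04 hearts, against 1.24, 1.87, 1.497 and 0.66 FPKM in the wild type hearts. All 5 transgenic hearts were above all 4 wild type hearts for S100a9, but the third transgenic vehicle heart and the first JIB-04 heart were several times higher than the rest. The log2 fold change of S100a9 in transgenic vehicle against wild type hearts was 1.49 ± 0.63 (SE) and did not pass the test (limma adjusted p = 0.10). Both genes passed when the first transgenic vehicle heart (day 125) was left out, at 2.26 and 2.34 on the log2 scale (limma adjusted p = 0.025 and 0.037).

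Neutrophil markers were low in all hearts. Their sum over 15 listed genes was 5.11, 4.51 and 16.5 FPKM in the transgenic vehicle hearts and 5.27 and 4.71 FPKM in JIB-04 hearts, against 4.14, 3.15, 1.55 and 2.49 FPKM in the wild type hearts. The third transgenic vehicle heart, highest for S100a8 and S100a9, was also highest for this sum. Lcn2 alone gave 9.88 FPKM of the sum in that heart, where Elane, Mpo and Ly6g were listed at 0. Retnlg (3.19 FPKM), Stfa2l1 (1.40 FPKM), Mmp8 (0.28 FPKM), Ltf, Cd177 and Trem1 were also highest there. Csf3r, Cxcr2, Ngp, Camp and Mmp9 were highest in other hearts. The first JIB-04 heart, second highest for both genes, had a sum close to the other transgenic hearts. Of the listed markers, Elane was at 0 in all 9 hearts, and Mpo and Ly6g were each above 0 in 1 heart only. Of the 15, 2 (Lcn2 and Retnlg) reached the level needed for testing, and neither passed in any comparison. Monocyte and macrophage markers summed to 234 to 312 FPKM in the transgenic vehicle hearts and 241 and 270.2 FPKM in JIB-04 hearts, against 219 to 297 FPKM in the wild type hearts. None of the 13 tested passed in transgenic vehicle or JIB-04 against wild type hearts, where 36.0% and 32.3% of all genes passed. The part of leukocytes in the spread of S100a8 and S100a9 was not tested.

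**Figure D2:**
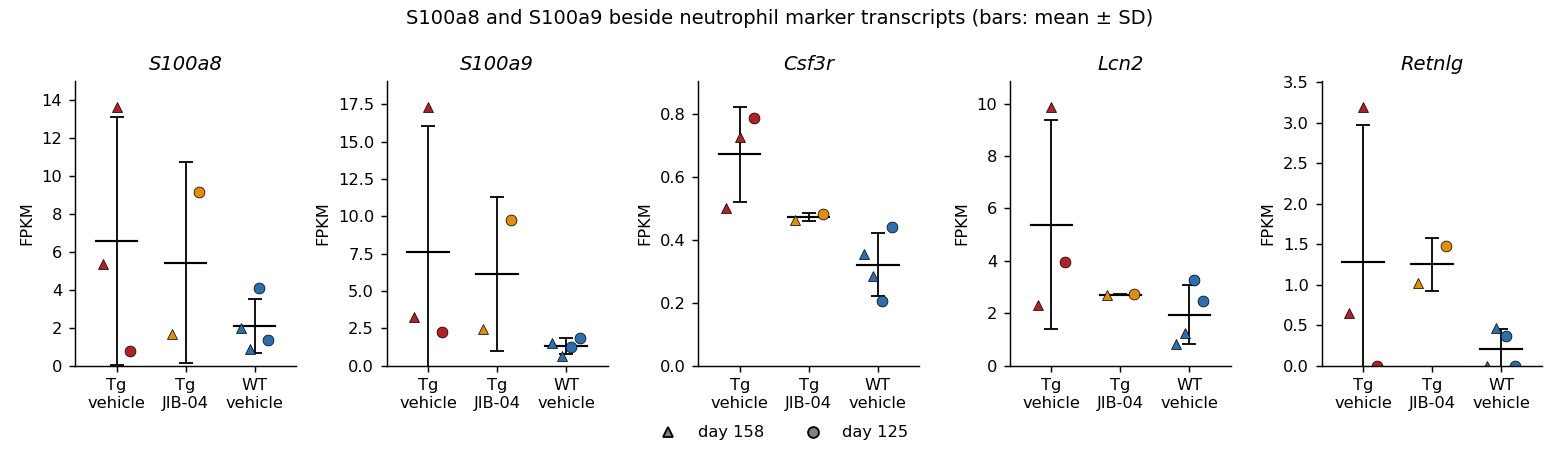
FPKM (linear axes from 0) of S100a8 and S100a9 beside 3 neutrophil markers, Csf3r, Lcn2 and Retnlg, in transgenic vehicle (Tg vehicle), transgenic JIB-04 (Tg JIB-04) and wild type vehicle (WT vehicle) hearts; triangles are day 158, circles day 125, bars mean ± SD, clipped at 0. The third transgenic vehicle heart is highest for S100a8 (13.6), S100a9 (17.3), Lcn2 (9.88) and Retnlg (3.19), and the first JIB-04 heart is second for S100a8 (9.17), S100a9 (9.77) and Retnlg (1.48); Csf3r is highest in the first transgenic vehicle heart (0.79), the heart lowest for S100a8.

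Tlr4, the receptor for calprotectin, had the largest log2(FPKM + 1) difference among the tested genes of receptors and other partners of S100 proteins. It stood at 14.3, 18.1 and 14.4 FPKM in the transgenic vehicle hearts, against 2.56, 2.76, 3.94 and 3.28 FPKM in the wild type hearts. The groups were far apart, and Tlr4 rose by a log2 fold change of 1.96 ± 0.10 (SE; limma adjusted p = 1.1e-05). Of 33 listed genes 23 were tested, and 4 rose and 3 fell, beside 36.0% of all genes called in either direction, with a median log2 difference of -0.10 beside 0.05 over all genes. Fgfr1, a fibroblast growth factor receptor, rose by 1.55 and Plat, the tissue plasminogen activator that the S100A10 and annexin A2 complex binds, by 1.19 on the log2 scale (limma adjusted p = 0.00010 and 0.0012). Bsg, basigin, a receptor for S100A9, fell to 525, 491 and 572 FPKM in the transgenic vehicle hearts, against 772 to 855 FPKM in the wild type hearts, a log2 fold change of -0.59 ± 0.08 (SE; limma adjusted p = 0.0010). Ager, the gene of RAGE, was listed at 0.16 to 0.56 FPKM in the transgenic vehicle hearts, against 0.28 to 0.45 FPKM in the wild type hearts, and was too low to test. Scn10a, the sodium channel that S100A10 carries to the membrane of sensory neurons, was also too low to test and is named here after its values were seen, at 0.0098 to 0.043 FPKM in the transgenic vehicle hearts, against 0.62 to 0.69 FPKM in the wild type hearts.

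**Figure D3:**
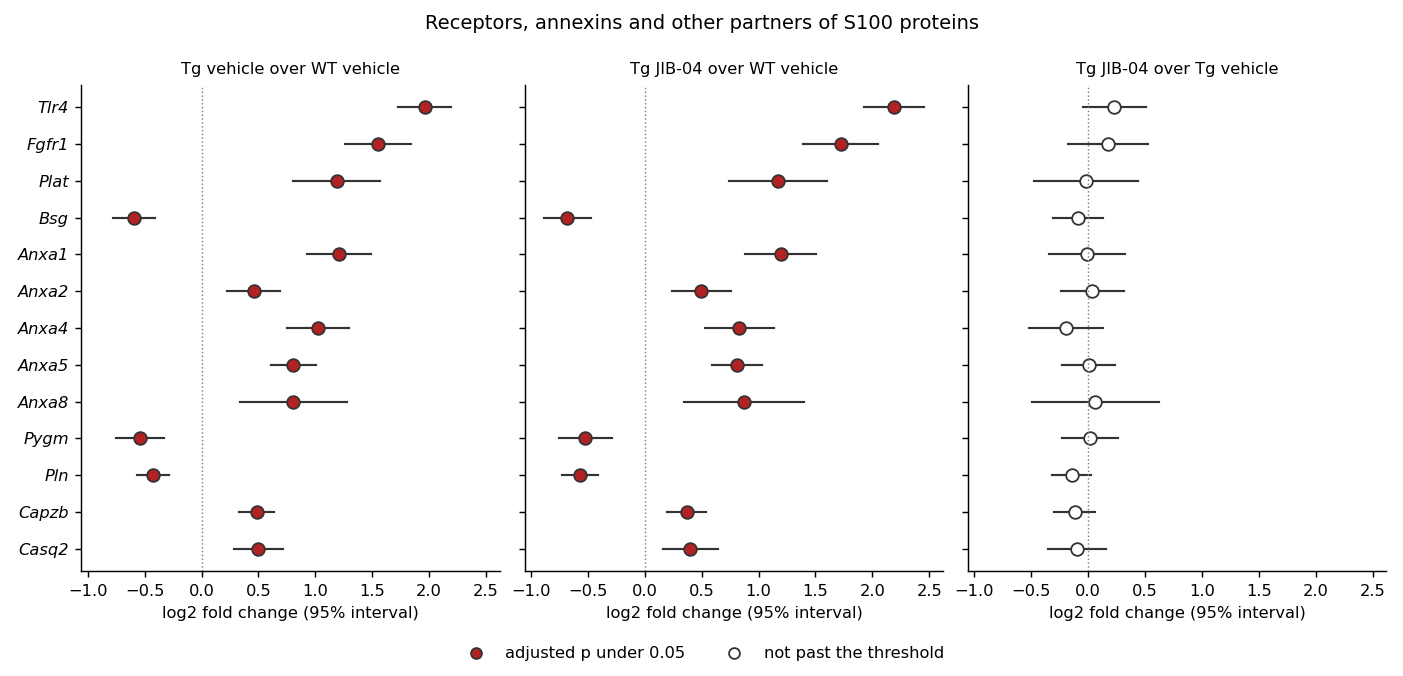
Log2 fold changes on the log2(FPKM + 1) scale (points) with 95% intervals (lines) of receptors, annexins and other listed partner or calcium-handling genes. Panels give transgenic vehicle over wild type vehicle, transgenic JIB-04 over wild type vehicle and transgenic JIB-04 over transgenic vehicle. Filled points passed the threshold. The 13 genes shown are Anxa2 and the largest called changes of each list in transgenic vehicle against wild type hearts. That they passed there follows from this choice. Of the tested genes, 2 of 9 annexins, 16 of 23 receptors and partners and 5 of 11 S100A1 partners did not pass there. Of all genes, 36.0% passed there. The 13 also passed in JIB-04 against the same wild type hearts, where 32.3% of all genes did. Tlr4 is farthest right (1.96 and 2.19), and none passed between the transgenic groups. Anxa8 reached the level needed for testing only in transgenic hearts.

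JIB-04 hearts did not differ detectably from transgenic vehicle hearts in any of the 9 S100 genes. None of the 9 passed (limma adjusted p from 0.987 to 0.997), none had an unadjusted p under 0.05, and 0.00741% of all genes tested, 1 gene, passed. The median log2 difference of the 9 genes was -0.07, beside -0.01 over all genes. The 95% intervals bound the differences that 2 against 3 hearts could miss. They ran from -0.54 to 0.08 for S100a1, from -0.44 to 0.07 for S100a6, from -0.25 to 0.33 for S100a11 and from -2.15 to 2.03 for S100a8 on the log2 scale, so the data leave changes of S100a8 of several fold in either direction undetected. The value of S100a8 near 0 joins opposite directions at the days: 9.17 FPKM in the JIB-04 heart against 0.75 FPKM in the transgenic vehicle heart at day 125, and 1.68 FPKM in the JIB-04 heart against 5.35 and 13.6 FPKM in the transgenic vehicle hearts at day 158. Neither day passed in the fit of 6 means (log2 fold change 2.54 at day 125, limma unadjusted p = 0.016, and -1.85 at day 158, unadjusted p = 0.031; adjusted p of 1.0 and 0.95). S100a9 gave -0.06 with all hearts and 0.72 without the third transgenic vehicle heart, passing in neither. Hearts of the groups did not overlap for 1 gene, beside 12.4% of all genes tested (5.55% higher, 6.88% lower). This was S100a4, higher, at 11.2 and 12.7 FPKM in JIB-04 hearts, against 10.3, 10.95 and 8.45 FPKM in the transgenic vehicle hearts, with a log2 fold change of 0.25 ± 0.12 (SE; limma unadjusted p = 0.071). S100a13 gave the most negative value, at 32.3 and 24.3 FPKM in JIB-04 hearts, against 34.7, 28.3 and 38.4 FPKM in the transgenic vehicle hearts (log2 fold change -0.29 ± 0.13, SE; limma unadjusted p = 0.063). No annexin, receptor or other partner gene on the lists passed in this comparison.

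Compared with wild type hearts, JIB-04 hearts showed the family arrangement of the transgenic vehicle hearts; the comparisons share the wild type hearts and are not independent. Of the 9 genes, 4 passed, 44.4% beside 32.3% of all genes tested, with S100a4, S100a6 and S100a11 higher (17.4% of all genes) and S100a1 lower (14.8%). S100a6 stood at 46.9 and 37.2 FPKM in JIB-04 hearts, against 26.3 to 30.98 FPKM in the wild type hearts (log2 fold change 0.54 ± 0.10, SE; limma adjusted p = 0.0057). S100a11 stood at 86.9 and 78.8 FPKM in JIB-04 hearts, against 47.4 to 61.9 FPKM in the wild type hearts (0.57 ± 0.12; limma adjusted p = 0.0080). S100a4 stood at 11.2 and 12.7 FPKM in JIB-04 hearts, against 7.47 to 8.35 FPKM in the wild type hearts (0.53 ± 0.11; limma adjusted p = 0.0091). For all 3 genes both JIB-04 hearts were above all wild type hearts. S100a16, at 43.8 and 35.2 FPKM in JIB-04 hearts, against 43.9 to 51.6 FPKM in the wild type hearts, did not pass (-0.25 ± 0.09; limma adjusted p = 0.070), but did with median of ratios scaling (-0.29; limma adjusted p = 0.024) and quantile normalization (-0.27; limma adjusted p = 0.026), and without the first transgenic vehicle heart (limma adjusted p = 0.047). S100a10, at 74.4 and 62.5 FPKM in JIB-04 hearts, overlapped the wild type range of 53.2 to 77.8 FPKM. S100a8, at 9.17 and 1.68 FPKM in JIB-04 hearts, overlapped the wild type range of 0.86 to 4.11 FPKM. Hearts did not overlap for 6 of the 9 genes, beside 50.2% of all genes tested, 4 of them higher (28.4% of all genes) and 2 lower (21.7%). With 2 hearts in the group, the calls rest on single hearts: S100a1 and S100a4 did not pass without the second JIB-04 heart, S100a6 did not pass without the first, and S100a11 did not pass without either, so that the count was 1 or 2 of the 9. Without the third transgenic vehicle heart, which enters through the shared spread, the count was 7, S100a9 (1.43; limma adjusted p = 0.020), S100a13 (-0.28; adjusted p = 0.016) and S100a16 (-0.25; adjusted p = 0.040) being added.

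**Figure D4:**
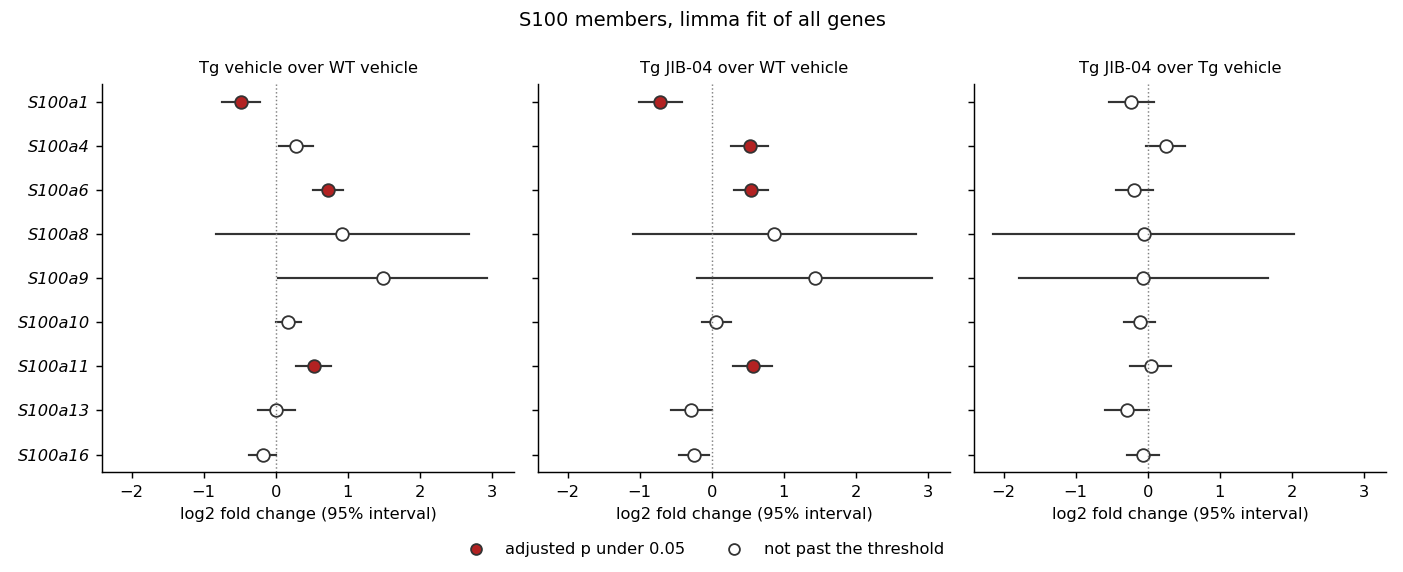
Log2 fold changes on the log2(FPKM + 1) scale (points) with 95% intervals (lines) of the 9 S100 genes, for transgenic vehicle over wild type vehicle, transgenic JIB-04 over wild type vehicle and transgenic JIB-04 over transgenic vehicle; filled points passed an adjusted p of 0.05. S100a1 is left of 0 (-0.48 and -0.71) and S100a6 (0.73 and 0.54) and S100a11 (0.53 and 0.57) right of 0 in both comparisons with wild type, and the intervals of S100a8 and S100a9 are the widest.

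The composition of the family, measured as each gene's share of the 9 genes' summed FPKM, is a description, since shares of one sum move together. S100a1 made up 56.95 and 59.4% of the sum in the JIB-04 hearts and 57.9 to 62.8% in the transgenic vehicle hearts, against 71.3 to 73.98% in the wild type hearts. S100a6 made up 6.05 and 6.28% in the JIB-04 hearts and 6.07 to 6.45% in the transgenic vehicle hearts, against 2.86 to 3.43% in the wild type hearts. S100a11 made up 11.2 and 13.3% in the JIB-04 hearts and 8.24 to 13.04% in the transgenic vehicle hearts, against 5.87 to 6.65% in the wild type hearts. The order by FPKM was S100a1, S100a11, S100a10, S100a6, S100a16 and S100a13 in each of the 5 transgenic hearts, and S100a1, S100a10, S100a11, S100a16, S100a13 and S100a6 in each of the 4 wild type hearts. S100a6 thus moved up past S100a13 and S100a16, and S100a11 past S100a10. In the first transgenic vehicle heart S100a11 and S100a10 were nearly level, at 82.3 and 82.1 FPKM. In the group means several neighbours in this order lay within their spread: S100a11 and S100a10 averaged 79.1 ± 11.2 and 71.4 ± 9.55 FPKM in the transgenic vehicle hearts (SD, n = 3), and S100a10 and S100a11 65.8 ± 10.8 and 55.7 ± 6.87 FPKM in the wild type hearts (SD, n = 4). In the same hearts S100a6 and S100a16 averaged 46.9 ± 5.12 and 40.6 ± 1.40 FPKM in the transgenic vehicle hearts (SD, n = 3). These SDs are between hearts and do not measure the order within a heart. The last places, held by S100a4, S100a8 and S100a9, changed from heart to heart.

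**Figure D5:**
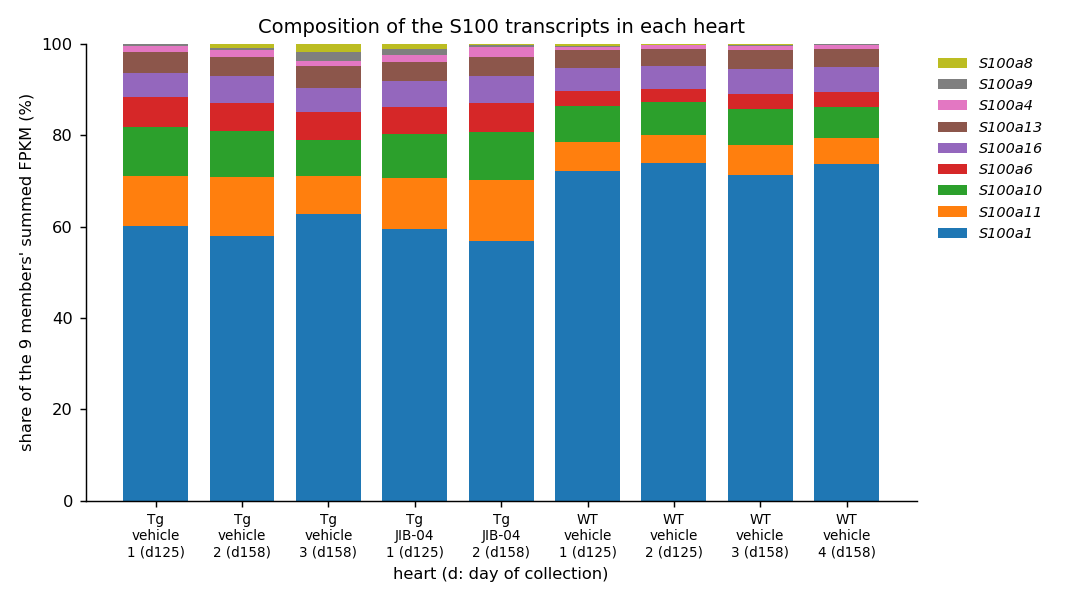
Share (%) of each of the 9 S100 genes in their summed FPKM, 1 bar per heart, with transgenic vehicle (Tg vehicle), transgenic JIB-04 (Tg JIB-04) and wild type vehicle (WT vehicle) hearts from left to right and the day of collection (d) in brackets. S100a1, the lowest segment, ends between 56.95 and 62.8% in the 5 transgenic hearts and between 71.3 and 73.98% in the 4 wild type hearts.

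Other S100 genes added little. Of 8 others listed, S100a2 and S100z were listed at 0 in all 9 hearts, S100a3 was above 0 in the JIB-04 hearts alone (0.095 and 0.22 FPKM) and S100a5 in 1 wild type heart alone (0.35 FPKM). S100a14 and S100a7a stayed below 1 FPKM in every heart, and S100g reached 1.56 FPKM in 1 JIB-04 heart. S100b, known from glia and Schwann cells, was the one tested, at 1.46 and 0.93 FPKM in JIB-04 hearts and 0.75, 0.54 and 0.57 FPKM in the transgenic vehicle hearts, against 0.99, 1.17, 0.78 and 1.06 FPKM in the wild type hearts. It did not pass in transgenic vehicle against wild type hearts (log2 fold change -0.28 ± 0.12, SE; limma adjusted p = 0.098). Both JIB-04 hearts were above all transgenic vehicle hearts for S100b, and the log2 fold change of 0.40 ± 0.14 (SE; limma unadjusted p = 0.018, adjusted p = 0.987) did not pass either.

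At day 158, 8 of the 9 S100 genes lay below their day 125 level, but none passed the test for day (0.378% of all genes tested passed), and 2 had an unadjusted p under 0.05 in limma (2534 of all 13487 genes did). Over all genes tested, 44% lay above their day 125 level. S100a10 was nearest, at 61.3 and 53.2 FPKM in the wild type hearts of day 158, against 77.8 and 70.8 FPKM in those of day 125, and at 68.4 and 63.8 FPKM in the transgenic vehicle hearts of day 158, against 82.1 FPKM in that of day 125. In the JIB-04 group it was 62.5 FPKM at day 158, against 74.4 FPKM at day 125. The day 158 hearts were lower in all 3 groups, with a log2 fold change of -0.33 ± 0.07 (SE; limma adjusted p = 0.078). S100a1 gave -0.25 ± 0.10 (SE; limma adjusted p = 0.23). The median over the 9 genes was -0.17, beside -0.03 over all genes tested. Whether the transgenic vehicle against wild type effect differed between the days was tested by an interaction in a fit of 6 group and day means, and none of the 9 passed (limma adjusted p = 0.999 for each, 0.00741% of all genes passing). S100a8 alone had an unadjusted p under 0.05, with an effect 3.02 ± 0.84 (SE) higher at day 158 on the log2 scale (limma unadjusted p = 0.012). Its values were 5.35 and 13.6 FPKM in transgenic vehicle hearts against 1.97 and 0.86 FPKM in wild type hearts at day 158, and 0.75 FPKM in the 1 transgenic vehicle heart against 4.11 and 1.36 FPKM in wild type hearts at day 125.

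The tested genes outside the family whose pattern was most like each member were found by Pearson's r over the 9 hearts in log2(FPKM + 1), given without a p, since all hearts share the differences between groups. S100a1 was followed by Mgst3 (r = 0.991), a microsomal glutathione transferase, and Oat (0.991), ornithine aminotransferase. S100a4 was followed by Thbs4 (0.981), thrombospondin 4 of the matrix, and Dpp3 (0.978), a peptidase. S100a11 was followed by Otud1 (0.991), a deubiquitinase, and Vim (0.986), the intermediate filament vimentin of stromal cells. Vim stood at 156 and 155 FPKM in JIB-04 hearts and 160.2, 158 and 123 FPKM in the transgenic vehicle hearts, against 88.9 to 116 FPKM in the wild type hearts, with the third transgenic vehicle heart lowest of the 5 as it was for S100a11. Thbs4 stood at 9.58 and 13.8 FPKM in JIB-04 hearts and 5.95, 7.72 and 3.19 FPKM in the transgenic vehicle hearts, against 1.12 to 1.42 FPKM in the wild type hearts, in the same order of hearts at the top as S100a4. S100a6 was followed by Rabggtb (0.991) and Iscu (0.990), S100a16 by Mrps18c (0.987) and Mif (0.985), S100a13 by Amigo2 (0.982) and Rabac1 (0.960), and S100a10 by Cog8 (0.941) and Gm9780 (0.936). S100a9 was followed by Ddrgk1 (0.968) and Foxc1 (0.965), and S100a8 by Bach2 (0.959) and Mical1 (0.950), none of them on the neutrophil list.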

How the data were processed

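mRNA libraries of 9 hearts were sequenced. Trizol served for extraction and the library kit did not mark strand, per the labels' protocols. The submitters' processing notes name Cufflinks 2.2.1, GATK 4.1.2, STAR 2.7.1a and Picard, with the build GRCm38, but no order of use; the annotation release is not given in the sources used here. The deposited values are log2 of FPKM, per the file headers, with an unstated constant; they were taken as log2(FPKM + 1), since the lowest value is 0 and none is negative. Levels are printed as FPKM, and fold changes on log2(FPKM + 1), which understates changes of low genes. limma 3.58.1 (R 4.3.3; lmFit, eBayes with a trend) was fitted to the 13487 genes reaching 1 FPKM in 2 or more hearts, with group and day as terms, and p-values were adjusted over all of them. The fit was tested on simulated data. The values are not counts, so no count model was used; relative depth was estimated from ratios of low values. The 9 genes and all gene lists were chosen with earlier results of these data known. Named partner genes are the called genes of each list, up to 4 a comparison by size, and always Anxa2; further called genes of the lists are named after their values were seen. Alternatives were other pseudocounts, filters, scalings, no day term, the replicate number as a block, day 158 alone, and each heart left out.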

Additional observations from a re-analysis of the deposited data

Results flagged for a closer look

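Anxa4, which encodes annexin A4, stood at 13.4 FPKM (13.3701) in the first wild type heart, against 11.8, 11.9 and 11.6 FPKM in the other wild type hearts. On the log2(FPKM + 1) scale the gap to the nearest heart took up more of the group's range than the 95% critical value for 4 samples allows, with a ratio of 0.832. Of 23 genes examined this way, 1 was marked; chance marks about 1 group in 20. The 5 transgenic hearts lay between 21.2 and 30.4 FPKM, all above it.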

How the results depend on the processing

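In transgenic vehicle against wild type hearts the count of S100 genes that passed was 3, and stayed within 3 to 4 when each heart was left out in turn. In JIB-04 against wild type hearts it was 4, and ran from 1 to 7 over the same omissions. With the day 158 hearts alone, 0 passed in both comparisons, in a fit of 5 hearts in which the genes called fell to 979 in transgenic vehicle against wild type hearts (4862 with all hearts) and to 444 in JIB-04 against wild type hearts (4354 with all hearts). Leaving out the first or second JIB-04 heart left 2186 and 1720 genes called against wild type. Between the transgenic groups, 0 to 6 genes passed under all alternatives and none was an S100 gene. For day, 51 genes passed with all hearts and 9 to 287 under the alternatives; equal totals without mitochondrial and the 20 highest genes gave 186, of which 149 were higher, against 21 of 51. For the interaction, 1 gene passed with all hearts and 186 with no filter on low values. Of 792 recomputed values of the 9 genes, 759 were counted as the same. These kept their side of the threshold, but an uncalled value could change sign if it shifted by no more than 1 SE. Calls were lost for 13 values and gained for 11. Another 9 uncalled values changed sign with a larger shift, and 0 called values changed sign. With the replicate block in place of day, the counts were 3, 0 and 4, as without it. Same-numbered hearts were not all of the same day, and their deviations from group means correlated from -0.19 to 0.43. These correlations cannot decide whether hearts are paired, since the deviations of the 2 JIB-04 hearts mirror each other. The interaction without the first transgenic vehicle heart could not be fitted, and a block for the day comparison was not run. Unknown read totals limit what can be said of genes below 1 FPKM.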
